A study of Homo sapiens with 12 samples.

Results

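The proteasome genes described here are 49 human genes that encode subunits of the proteasome, its activators and inhibitor, and factors that assemble it. They were chosen by name, with no measured value in the rule, and all 49 are among the 25680 gene symbols of the deposited tables. Of these, 48 passed the filter on low counts that left 16782 genes to test, and PSMB9 did not. RNA sequencing was run on MM.1S and U266, a pair of human cell lines derived from multiple myeloma. Each line was exposed for 6 h to 6 µM IT848, named in the labels as an inhibitor of NF-kB, or to the solvent DMSO. The groups MM.1S IT848, MM.1S DMSO, U266 IT848 and U266 DMSO held 3 libraries each, 12 in all, and the culture medium, RPMI with fetal bovine serum, was common to all of them. Each line stands for 1 tumour. MM.1S is a MAF-overexpressing line, and U266 is an IL6-producing line that expresses cyclin D1. Nothing in the labels states that replicates were cultured separately, and p-values then measure only the spread between these libraries, which may be technical.

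The proteasome is the protease complex that degrades ubiquitin-tagged proteins. Its barrel-shaped core is built of rings of alpha subunits, which gate the entrance, and rings of beta subunits, of which PSMB5, PSMB6 and PSMB7 carry the protease sites. A cap with a ring of ATPases recognises, unfolds and feeds in the substrates, and other activators can take its place. Plasma cells make large amounts of secreted protein, and proteasome inhibitors such as bortezomib are a standard treatment of myeloma. Cells whose proteasome is blocked are known to raise the whole set of subunit genes through the transcription factor NFE2L1, which binds antioxidant response elements.

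After IT848, 35 of the 37 core and cap genes were called higher in MM.1S, with PSMD5 lower and UCHL5 not called, and 12 of the 37 were called higher in U266. In MM.1S 38 of the 48 tested members were called higher and 2 lower at an adjusted p below 0.05 in edgeR's quasi-likelihood test, where 18.7% of all tested genes were called higher and 19.6% lower. In U266 12 were called higher and 0 lower, where 4.03% of all tested genes were called higher and 4.98% lower. The median log2 fold change of the members was 0.48 in MM.1S and 0.11 in U266, beside -0.01 and 0.01 over all genes tested. All 12 members called higher in U266 were also called higher in MM.1S. This overlap was not counted over all tested genes, and 38 of the 48 members were higher in MM.1S in any case. Before adjustment, 20 members had an unadjusted p below 0.05 in U266, of which 0 had a negative fold change, where 9.96% of all tested genes had such a p with a positive and 10.8% with a negative fold change. DESeq2 also called 0 members lower there. No member changed by 2-fold in MM.1S, where 6.86% of all tested genes did by the fitted value, and 11 were at least 1.5-fold higher, where 7.58% of all tested genes were.

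**Figure D1:**
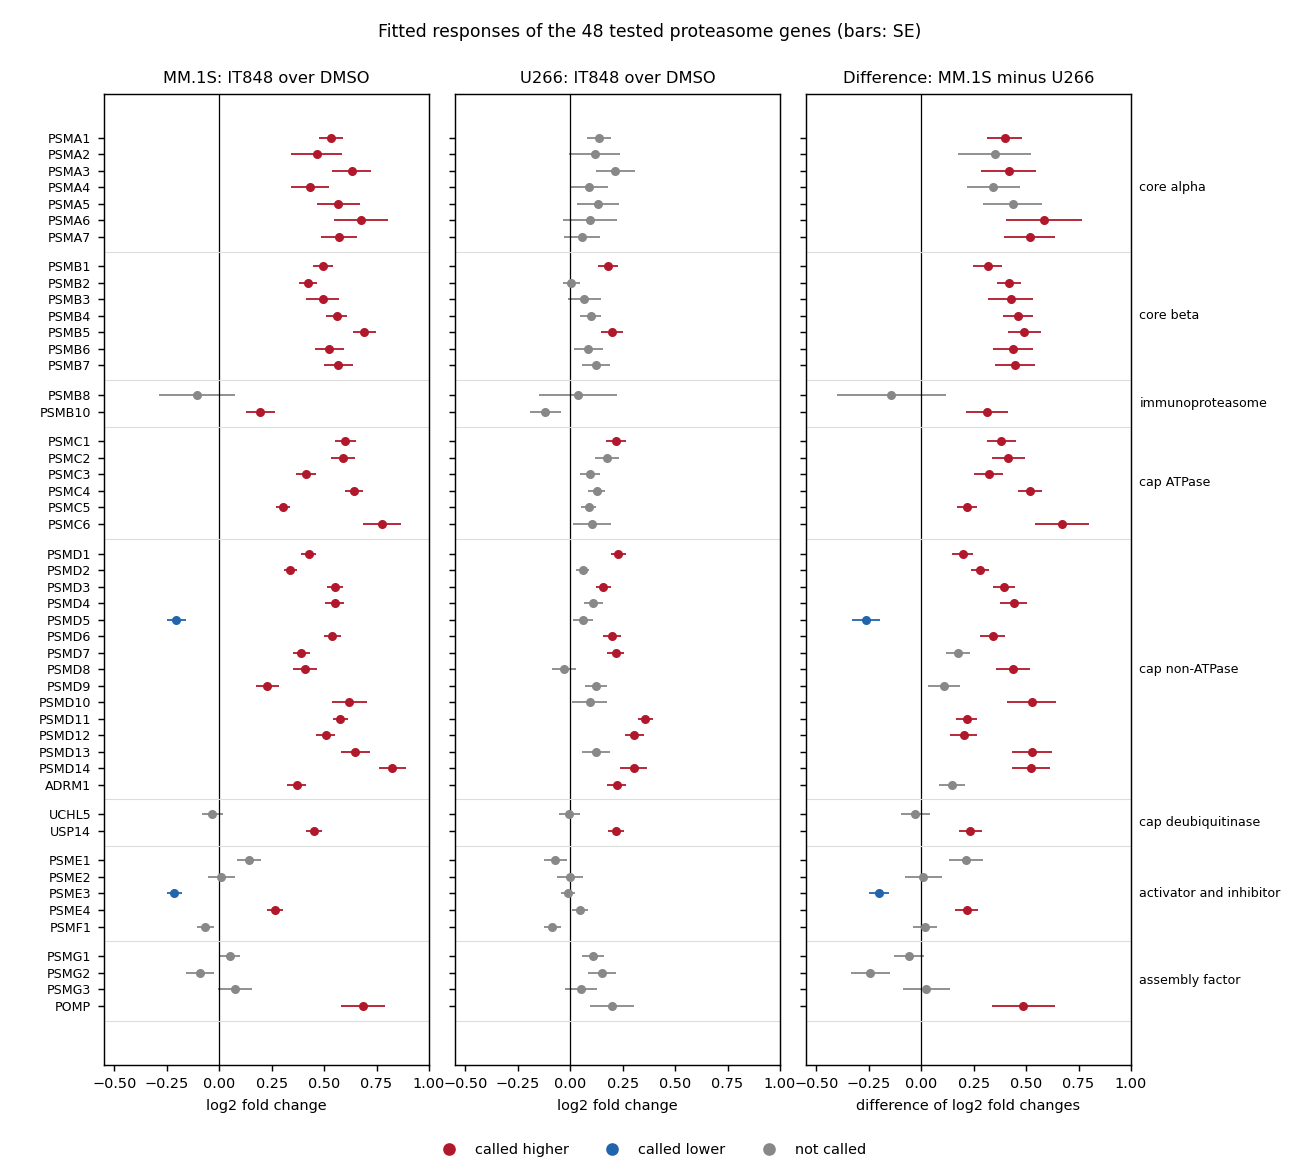
Fitted log2 fold changes of IT848 over DMSO in MM.1S (left) and U266 (middle) and their difference (right) for the 48 tested members, grouped by role; points are estimates and bars are SE. Red marks members called higher, blue called lower and grey not called by edgeR's quasi-likelihood test at an adjusted p below 0.05, with 38 members red in MM.1S and 12 in U266.

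The counts behind these values were deep. Library totals over all transcripts were 50627690 to 72039748, and with 1 transcript per gene 22887471 to 32913386. The members had a median level of 106 CPM (counts scaled to a common library total with TMM factors), against 13.5 CPM over all tested genes. More counts give a test more power, so the calls were also set against abundant genes alone. Of the 47 members of at least 25 CPM, 38 were called higher in MM.1S and 12 in U266, where 26.3% and 5.76% of the 6515 tested genes of that level were. CPM values here sum all listed transcripts of a symbol, and reads were counted for every transcript they overlap. They can be compared between libraries for 1 gene but not between genes as levels. The medians and the 25 CPM cut above therefore describe only the counts that entered the test.

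A pair of libraries held reads of the other line. In U266 IT848 replicate 1, 15 genes specific to MM.1S stood at 0.886% of their MM.1S level, against 0.0350 to 0.0905% in the other U266 libraries. In MM.1S DMSO replicate 2, 45 genes specific to U266 stood at 0.435% of their U266 level, against 0.0343 to 0.0955% in the other MM.1S libraries. The MM.1S genes were picked partly for low values in the U266 DMSO libraries. The U266 genes were picked partly for low values in MM.1S DMSO replicates 1 and 3. Low values in those libraries were thus fixed by the choice. The IT848 libraries, free of that rule, had 0.0905 and 0.0801% in U266 replicates 2 and 3, and 0.0708 to 0.0955% in MM.1S. Without U266 IT848 replicate 1 and MM.1S DMSO replicate 2, 37 members were called higher and 2 lower in MM.1S. In U266 9 were then called higher and 0 lower. All 7 plasma cell markers were present, at a summed level of 5897 to 6093 CPM in MM.1S IT848 and 6144 to 6220 CPM in MM.1S DMSO, and of 2676 to 2770 CPM in U266 IT848 and 3104 to 3283 CPM in U266 DMSO. Within this sum 2 rose and 5 fell with IT848 in MM.1S, and 1 rose and 6 fell in U266. Of all tested genes, 18.7% were called higher and 19.6% lower in MM.1S, and 4.03% and 4.98% in U266. SDC1 averaged 318 CPM in MM.1S IT848 and 655 CPM in MM.1S DMSO, and 734 CPM in U266 IT848 and 1067 CPM in U266 DMSO. SLAMF7, which rose in both lines, averaged 3755 CPM in MM.1S IT848 and 2796 CPM in MM.1S DMSO, and 905 CPM in U266 IT848 and 652 CPM in U266 DMSO. The line marks fitted the labels, with MAF at a mean of 676 CPM in MM.1S IT848 and 885 CPM in MM.1S DMSO, against 40.9 CPM in U266 IT848 and 36.6 CPM in U266 DMSO, and CCND1 at 2.92 and 4.85 CPM in these MM.1S groups, against 390.4 and 506 CPM in these U266 groups. The 16 markers of T and NK, myeloid and erythroid cells together summed to at most 9.56 CPM in any library, with FCN1 at 0 in all 12. Of these the 4 erythroid markers were higher after IT848 in MM.1S, at 4.22 to 5.43 CPM with IT848 against 2.19 to 2.28 CPM with DMSO, nearly all of it HBB, and overlapped in U266, at 1.06 to 1.17 CPM with IT848 against 0.725 to 1.53 CPM with DMSO. The 6 stromal cell markers, led by COL1A1, were low but higher after IT848. They summed to 23.4 to 29.6 CPM in MM.1S IT848 against 15.9 to 20.4 CPM in MM.1S DMSO, and to 35.5 to 43.6 CPM in U266 IT848 against 28.1 to 32.9 CPM in U266 DMSO. By the test, 3 of the 6 rose in MM.1S and 1 in U266, where 18.7% and 4.03% of all tested genes were called higher. No stromal marker was at 0 in any library. The part of the plasma cell, erythroid and stromal markers in the members' changes was not tested, and in bulk samples fewer cells of a type and less RNA per cell cannot be told apart.

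Short transcripts moved together in these libraries, which bears on a set whose tested members had a median transcript length of 1556.5 bases, against 2835.5 bases over all tested genes. The rank correlation across genes between transcript length and a library's deviation from its line mean was -0.464 to 0.0336 in MM.1S IT848 and 0.157 to 0.425 in MM.1S DMSO over 10312 genes. It was -0.256 to 0.110 in U266 IT848 and 0.0056 to 0.206 in U266 DMSO over 10168 genes. Genes are not independent replicates, and these values are a description. With this trend taken out of each library, 37 members were called higher and 4 lower in MM.1S, with a median of 0.37. The 14 core genes were all still called higher, with a median of 0.38 in place of 0.55, and the 6 ATPases with 0.54 in place of 0.60. In U266 13 members were then called higher and 0 lower. The 3 MM.1S IT848 libraries also differed among themselves. Replicate 3, with the value of -0.464, was the highest of them for 12 of the 14 core genes, and replicate 1, with 0.0336, was the lowest for 13.

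Promoter windows of 250 bases before to 50 after the gene start, from RefSeq on the GRCh38.p14 build, were found for 43 of the 49 members. Where a gene had several, the one listed first was used. The promoters set beside them are those of all genes of the reference, expressed here or not. They were not matched to the members in base composition. The short antioxidant response element TGACNNNGC, searched on both strands, occurred in 16 of these 43 windows, which is 37.2%, against 13.6% of 27305 promoters of the same length. The stricter form TGACTCAGC, which is itself a match of the short form, occurred in 0 of 43 windows against 0.564% of all promoters. The heat shock element GAANNTTC, a short form searched the same way, occurred in 0 of 43 windows against 6.87%. Matched stretches are shown for 9 members, because the element was found among members called higher, called lower and not called. Each is read 5′ to 3′ on the strand of the gene, upstream of its start, and capitals mark the element in either orientation. The first 5 genes were called higher in MM.1S, PSMD5 was called lower, and the last 3 were not called.
PSMB3, chr17:38752611-38752670 (+ strand): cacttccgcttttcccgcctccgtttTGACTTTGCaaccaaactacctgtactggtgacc
PSMD3, chr17:39980744-39980803 (+ strand): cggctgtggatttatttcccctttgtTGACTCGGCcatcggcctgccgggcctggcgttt
PSMD12, chr17:67366709-67366768 (- strand): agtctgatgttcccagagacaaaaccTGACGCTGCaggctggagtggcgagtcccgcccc
ADRM1, chr20:62302733-62302792 (+ strand): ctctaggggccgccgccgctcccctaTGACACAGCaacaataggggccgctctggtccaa
USP14, chr18:158505-158556 (+ strand): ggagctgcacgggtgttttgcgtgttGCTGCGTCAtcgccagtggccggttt
PSMD5, chr9:120843023-120843082 (- strand): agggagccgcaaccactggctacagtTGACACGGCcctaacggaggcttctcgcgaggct
PSME1, chr14:24136082-24136141 (+ strand): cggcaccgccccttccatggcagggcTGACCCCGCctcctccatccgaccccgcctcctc
PSMG2, chr18:12658673-12658732 (+ strand): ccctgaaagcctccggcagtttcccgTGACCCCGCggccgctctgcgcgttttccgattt
UCHL5, chr1:193059378-193059437 (- strand): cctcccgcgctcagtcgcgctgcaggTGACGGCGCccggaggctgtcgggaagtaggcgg

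By response, the element was in 9 of 33 windows of members called higher in MM.1S, which is 27.3%, in 1 of 2 of members called lower, and in 5 of 7 of members not called, which is 71.4%. The 5 are PSME1, PSME2, PSMG1, PSMG2 and UCHL5. The windows of PSMB5, PSMC6, PSMD14 and POMP, among the largest responses, held no match of the element. A match is a description of the sequence, and its absence says only that the letters are not in this window.

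All 14 genes of the core particle rose in MM.1S, by 0.42 to 0.69 on the log2 scale, while 2 of 14 were called higher in U266. The alpha ring genes PSMA1 to PSMA7 had a median log2 fold change of 0.57 in MM.1S and 0.12 in U266, where 0 of 7 were called. The largest alpha response in MM.1S was that of PSMA6, a ring subunit, at 251, 311 and 396 CPM in MM.1S IT848 libraries, against 183, 188 and 228 CPM in MM.1S DMSO libraries. The MM.1S groups did not overlap, although the IT848 libraries were spread widely. PSMA6 rose by 0.68 ± 0.13 (SE, adjusted p = 0.00128 in edgeR's quasi-likelihood test). PSMA6 in U266 had 403, 382 and 389 CPM with IT848, against 358, 386 and 355 CPM with DMSO. There the groups overlapped, with a log2 fold change of 0.09 ± 0.13 (adjusted p = 0.76 by edgeR). The smallest alpha response was that of PSMA4, another ring subunit, at 316, 359 and 433 CPM in MM.1S IT848 libraries, against 255, 276 and 289 CPM in MM.1S DMSO libraries. All IT848 values lay above all DMSO values, and PSMA4 rose by 0.43 ± 0.09 (edgeR adjusted p = 0.00207). Its U266 libraries had 350.3, 336 and 338 CPM with IT848, against 309, 341 and 312 CPM with DMSO, which overlapped (0.09 ± 0.09, edgeR adjusted p = 0.642). The other 5 alpha genes rose by 0.46 to 0.63 in MM.1S.

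Among the beta ring genes, PSMB5 had the largest response in MM.1S. It encodes the chymotrypsin-like site, the main target of bortezomib, and had 65.5, 73.6 and 75.1 CPM in MM.1S IT848 libraries, against 41.7, 45.995 and 45.1 CPM in MM.1S DMSO libraries. The lowest IT848 library stood well above the highest DMSO library, and PSMB5 rose by 0.69 ± 0.06 (SE, edgeR adjusted p = 3.25e-07). In U266 PSMB5 had 110.0, 105 and 106 CPM with IT848, against 92.3, 93.1 and 93.9 CPM with DMSO. These groups did not overlap either, and PSMB5 rose by 0.20 ± 0.05 there (edgeR adjusted p = 0.0307). That U266 call was lost in 7 of 20 other settings, with an adjusted p of up to 0.169. PSMB1, a beta subunit with no protease site, was the other core gene called in U266, at 0.18 ± 0.05 (edgeR adjusted p = 0.0277), and its call was lost in 8 of 20 settings.

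PSMB6, which carries the caspase-like site, had 119, 136 and 146 CPM in MM.1S IT848 libraries, against 91.7, 90.2 and 96.8 CPM in MM.1S DMSO libraries. It rose by 0.53 ± 0.07 in MM.1S with no overlap between groups (edgeR adjusted p = 3.29e-05). PSMB6 in U266 had 84.7, 74.3 and 81.8 CPM with IT848, against 77.7, 73.6 and 75.5 CPM with DMSO, which overlapped (0.09 ± 0.07, edgeR adjusted p = 0.538). PSMB7, which carries the trypsin-like site, had 82.4, 91.2 and 103 CPM in MM.1S IT848 libraries, against 58.2, 62.4 and 65.98 CPM in MM.1S DMSO libraries. These groups stood apart, and PSMB7 rose by 0.57 ± 0.07 (edgeR adjusted p = 1.84e-05). Its U266 values of 126, 119 and 122 CPM with IT848 also lay above the 114, 110.2 and 113 CPM with DMSO, but the change of 0.12 ± 0.07 did not pass the test (edgeR adjusted p = 0.334). The smallest beta response was that of PSMB2, a structural beta subunit, at 368, 346 and 361 CPM in MM.1S IT848 libraries, against 263, 261 and 277 CPM in MM.1S DMSO libraries. PSMB2 rose by 0.42 ± 0.04 in MM.1S (edgeR adjusted p = 2.12e-06), again without overlap. In U266 it had 222, 215 and 229.6 CPM with IT848, against 227, 222 and 216 CPM with DMSO, fully overlapping, with a log2 fold change of 0.00 ± 0.04 (edgeR adjusted p = 0.978).

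**Figure D2:**
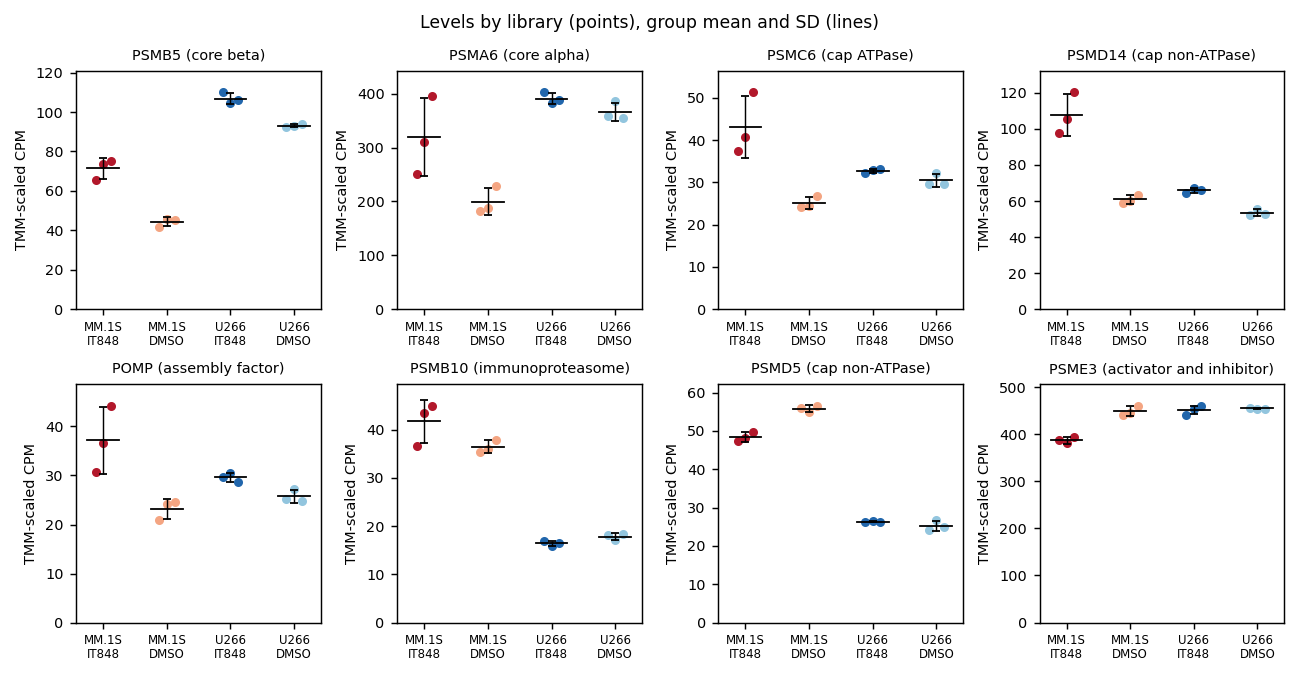
TMM-scaled CPM of 8 members in every library (points) with the group mean and SD (lines), on axes that start at 0, for the groups MM.1S IT848, MM.1S DMSO, U266 IT848 and U266 DMSO from left to right. PSMB5, PSMA6, PSMC6, PSMD14 and POMP lie higher in all 3 MM.1S IT848 libraries than in all 3 MM.1S DMSO libraries, and PSMD5 and PSME3 lie lower.

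The 6 ATPases of the cap, PSMC1 to PSMC6, which unfold the substrate, all rose in MM.1S, with a median of 0.60, and 1 of 6 was called in U266. PSMC6 led them at 37.3, 40.7 and 51.3 CPM in MM.1S IT848 libraries, against 24.3, 24.4 and 26.8 CPM in MM.1S DMSO libraries. It rose by 0.78 ± 0.09 (SE, edgeR adjusted p = 1.87e-05), with every IT848 library above every DMSO library. Its U266 levels were 32.1, 33.01 and 33.1 CPM with IT848, against 29.6, 32.2 and 29.6 CPM with DMSO. The highest U266 DMSO library lay within the IT848 range, and the fold change of 0.10 ± 0.09 was not called (edgeR adjusted p = 0.59). PSMC5 had the smallest ATPase response, at 158, 159 and 156 CPM in MM.1S IT848 libraries, against 127, 128 and 129 CPM in MM.1S DMSO libraries. Its libraries were close together within each group, and it rose by 0.30 ± 0.03 (edgeR adjusted p = 1.03e-05). In U266 PSMC5 had 239, 238 and 239.7 CPM with IT848, against 230.3, 219 and 226 CPM with DMSO. These ranges did not overlap, yet the change of 0.09 ± 0.03 did not pass the test (edgeR adjusted p = 0.153). PSMC1 was the ATPase called higher in U266, by 0.22 ± 0.05 (edgeR adjusted p = 0.00953), a call lost without U266 DMSO replicate 1 (0.0589) or U266 IT848 replicate 3 (0.0566).

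The cap genes without ATPase activity, PSMD1 to PSMD14 and ADRM1, held most of the U266 calls. Of these 15, 14 rose and 1 fell in MM.1S, with a median of 0.51, and 8 rose in U266. PSMD14 had the largest response of all members in MM.1S. It encodes the deubiquitinase that strips ubiquitin from substrates as they enter, and had 97.5, 105 and 120.3 CPM in MM.1S IT848 libraries, against 59.1, 59.98 and 63.5 CPM in MM.1S DMSO libraries. The groups lay far apart, and PSMD14 rose by 0.82 ± 0.06 (SE, edgeR adjusted p = 2.77e-07). In U266 it had 64.3, 67.1 and 66.1 CPM with IT848, against 52.1, 55.6 and 52.6 CPM with DMSO, again without overlap, and rose by 0.30 ± 0.06 (edgeR adjusted p = 0.00796). The 8 U266 log2 fold changes were 0.36 for PSMD11, 0.30 for PSMD12, 0.30 for PSMD14, 0.23 for PSMD1, 0.22 for ADRM1, 0.22 for PSMD7, 0.20 for PSMD6 and 0.16 for PSMD3. PSMD11 and PSMD12 are scaffold subunits of the cap's lid, PSMD1 and PSMD3 are scaffold subunits of its base and lid, PSMD6 and PSMD7 are lid subunits, PSMD7 being the partner of PSMD14, and ADRM1 is a ubiquitin receptor. Of the 8, PSMD1, PSMD7, PSMD11, PSMD12 and ADRM1 kept their call in all 20 other settings. The U266 call of PSMD3 was lost in 5 settings (adjusted p of up to 0.120), and those of PSMD6 and PSMD14 in 2 each (up to 0.0607 and 0.0558).

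PSMD5, PSMD9 and PSMD10 are chaperones of cap assembly that leave the finished particle, and they went in different directions in MM.1S. PSMD5, whose promoter window holds TGACACGGC, had 47.3, 48.2 and 49.7 CPM in MM.1S IT848 libraries, against 55.9, 54.8 and 56.6 CPM in MM.1S DMSO libraries. All IT848 libraries lay below all DMSO libraries, and PSMD5 fell, with a log2 fold change of -0.21 ± 0.05 (edgeR adjusted p = 0.00281). In U266 it had 26.2, 26.5 and 26.2 CPM with IT848, against 24.1, 26.6 and 24.9 CPM with DMSO, which overlapped (0.06 ± 0.05, edgeR adjusted p = 0.552). PSMD9 rose by 0.23 ± 0.05 and PSMD10, also called gankyrin, by 0.62 ± 0.08 in MM.1S (edgeR adjusted p = 0.00392 and 5.5e-05). The strand setting of the counts is not given in the sources used here. PSMD5, PSMD6 and PSMG3 have antisense genes in the tables, so reads of each pair may not have been told apart and these values are uncertain.

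The 2 deubiquitinases that bind the cap from outside its fixed subunits differed. USP14, which trims ubiquitin chains and whose window holds GCTGCGTCA, had 211, 209.8 and 211 CPM in MM.1S IT848 libraries, against 153, 155 and 154 CPM in MM.1S DMSO libraries. Its replicates were nearly identical within groups, and it rose by 0.45 ± 0.04 in MM.1S (SE, edgeR adjusted p = 5.64e-07). In U266 USP14 had 161, 165 and 160.3 CPM with IT848, against 140.2, 145 and 133 CPM with DMSO, also apart, and rose by 0.22 ± 0.04 (edgeR adjusted p = 0.00188). UCHL5, the partner of ADRM1, had 213, 223 and 224 CPM in MM.1S IT848 libraries, against 216, 224 and 236 CPM in MM.1S DMSO libraries. These groups overlapped, with -0.03 ± 0.05 (edgeR adjusted p = 0.633). UCHL5 in U266 had 164, 177 and 180.0 CPM with IT848, against 167, 183 and 173 CPM with DMSO, likewise overlapping (0.00 ± 0.05, edgeR adjusted p = 0.976). Its receptor ADRM1 rose by 0.37 ± 0.04 in MM.1S (edgeR adjusted p = 1.84e-05).

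Few of the activator genes were called. Of PSME1 to PSME4 and the inhibitor PSMF1, 1 rose and 1 fell in MM.1S, and 0 of 5 were called in U266. Of all tested genes, 18.7% were called higher and 19.6% lower in MM.1S, and 4.03% and 4.98% in U266. For 5 genes, the counts are near these shares. PSME4, a large single-chain activator, had 97.6, 92.4 and 94.4 CPM in MM.1S IT848 libraries, against 79.1, 78.1 and 79.5 CPM in MM.1S DMSO libraries. The groups did not overlap, and PSME4 rose by 0.26 ± 0.04 (SE, edgeR adjusted p = 9.26e-05). In U266 it had 84.2, 84.7 and 82.7 CPM with IT848, against 80.3, 82.9 and 80.3 CPM with DMSO, which overlapped (0.05 ± 0.04, edgeR adjusted p = 0.552). PSME3, which forms the nuclear activator ring, had 387, 380.3 and 394 CPM in MM.1S IT848 libraries, against 441, 446 and 461 CPM in MM.1S DMSO libraries. Every IT848 library was below every DMSO library, and PSME3 fell, with -0.21 ± 0.03 (edgeR adjusted p = 0.000204). Its U266 libraries had 441, 453 and 459 CPM with IT848, against 456, 454 and 454 CPM with DMSO, which overlapped (-0.01 ± 0.03, edgeR adjusted p = 0.9).

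PSME1 and PSME2 encode the interferon-inducible activator that pairs with the immunoproteasome. PSME1 had 192, 204 and 231 CPM in MM.1S IT848 libraries, against 187, 184 and 198 CPM in MM.1S DMSO libraries. The highest DMSO library lay above the lowest IT848 library, and 0.14 ± 0.06 was not called (SE, edgeR adjusted p = 0.06), although it passed in 4 of 20 other settings. In U266 PSME1 had 325, 324 and 331 CPM with IT848, against 352, 338 and 340.4 CPM with DMSO, all lower with IT848 but not called (-0.07 ± 0.06, edgeR adjusted p = 0.537). PSME2 had 32.8, 37.3 and 40.4 CPM in MM.1S IT848 libraries, against 34.99, 36.3 and 38.7 CPM in MM.1S DMSO libraries. Its groups overlapped, with 0.01 ± 0.06 (edgeR adjusted p = 0.945). With the length trend taken out, PSME2 was called lower in MM.1S at -0.22 (edgeR adjusted p = 0.000258). PSME2 has processed pseudogenes that could take or lend reads, so its values are uncertain. The same holds for any other member with such copies, since the handling of multiply aligned reads is not given. U266 gave 62.9, 60.5 and 61.2 CPM with IT848 for PSME2, against 61.3, 61.4 and 62.1 CPM with DMSO (0.00 ± 0.06, edgeR adjusted p = 0.996), which overlapped. PSMF1, which inhibits the core, had 108, 104 and 107 CPM in MM.1S IT848 libraries, against 112, 111 and 112 CPM in MM.1S DMSO libraries. The IT848 values lay below the DMSO values, but -0.07 ± 0.04 did not pass the test (edgeR adjusted p = 0.214). In U266 PSMF1 had 99.8, 96.1 and 105 CPM with IT848, against 105, 108 and 107 CPM with DMSO, which overlapped slightly (-0.09 ± 0.04, edgeR adjusted p = 0.248).

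Among the assembly factors of the core, POMP rose in MM.1S and PSMG1, PSMG2 and PSMG3 were not called. POMP, the maturation protein that is degraded as the first substrate of the new core, had 30.7, 36.6 and 44.3 CPM in MM.1S IT848 libraries, against 20.8, 24.1 and 24.5 CPM in MM.1S DMSO libraries. The groups did not overlap, and POMP rose by 0.68 ± 0.11 (SE, edgeR adjusted p = 0.000207). For U266 the POMP values were 29.7, 30.4 and 28.7 CPM with IT848, against 25.1, 27.3 and 24.9 CPM with DMSO. All IT848 values were above all DMSO values, but 0.20 ± 0.11 was not called (edgeR adjusted p = 0.32). PSMG1, a chaperone of the alpha ring, had 144, 140.2 and 152 CPM in MM.1S IT848 libraries, against 136, 142 and 143 CPM in MM.1S DMSO libraries. These overlapped (0.05 ± 0.05, edgeR adjusted p = 0.471), as did its U266 values of 138, 128 and 143 CPM with IT848, against 126, 132 and 122 CPM with DMSO (0.11 ± 0.05, edgeR adjusted p = 0.25). Its partner PSMG2 had a log2 fold change of -0.09 ± 0.07 in MM.1S and 0.15 ± 0.07 in U266, and PSMG3 had 0.08 ± 0.08 and 0.05 ± 0.08. With the length trend taken out, PSMG2 was called lower in MM.1S at -0.26 (edgeR adjusted p = 0.000515).

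Of the immunoproteasome genes, which interferon induces and whose products replace the standard protease sites, PSMB10 alone could be read as a level. PSMB10 had 36.6, 43.5 and 44.995 CPM in MM.1S IT848 libraries, against 35.4, 35.99 and 37.9 CPM in MM.1S DMSO libraries. The groups overlapped, with the lowest IT848 library inside the DMSO range, and it was called higher at 0.20 ± 0.07 (SE, edgeR adjusted p = 0.0354). This call was lost in 7 of 20 other settings, among them the fit with the length trend taken out (0.00, edgeR adjusted p = 0.980). In U266 PSMB10 had 16.9, 15.9 and 16.5 CPM with IT848, against 18.1, 17.1 and 18.4 CPM with DMSO, all lower with IT848 but not called (-0.12 ± 0.07, edgeR adjusted p = 0.403). PSMB8 had 1.33, 0.959 and 1.42 CPM in MM.1S IT848 libraries, against 1.23, 1.58 and 1.19 CPM in MM.1S DMSO libraries. In U266 the values of PSMB8 were 1.14, 1.03 and 1.23 CPM with IT848, against 1.16, 1.08 and 1.09 CPM with DMSO, with overlap in both lines. These were 56 to 89 counts per library, with no call in either line (-0.11 ± 0.18 in MM.1S and 0.04 ± 0.19 in U266, edgeR adjusted p = 0.686 and 0.95). PSMB9 had 1 count in each of U266 IT848 replicates 1 and 3 and 0 in the other 10 libraries. Both genes lie in the major histocompatibility region on chromosome 6 and are listed as 16 and 8 numbered copies of their transcripts. The hg19 build is known to carry alternative versions of that region, to which reads can align more than once, and the part of this in the low counts was not tested. The values of PSMB8 and PSMB9 are given as listed and not read as levels.

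The level of PSMB10 was set against that of PSMB7, whose place it takes, per length of the most counted transcript (1006 and 1015 bases). PSMB10 made up 31.0, 32.5 and 30.6% of the sum of both in the MM.1S IT848 libraries, against 38.0, 36.8 and 36.7% in the MM.1S DMSO libraries. Its share was 11.9, 11.9 and 12.01% in U266 IT848 and 13.8, 13.5 and 14.1% in U266 DMSO. The share was lower with IT848 in both lines with no overlap between groups, at 31.3 ± 1.02% against 37.2 ± 0.716% in MM.1S and 11.9 ± 0.0779% against 13.8 ± 0.279% in U266 (SD, n = 3 each). In MM.1S both genes were called higher, PSMB10 by less (0.20) than PSMB7 (0.57) on the log2 scale, and in U266 neither was called (-0.12 and 0.12). A two-sided exact permutation test gave p = 0.10 in each line, the smallest that 3 against 3 libraries allow.

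**Figure D3:**
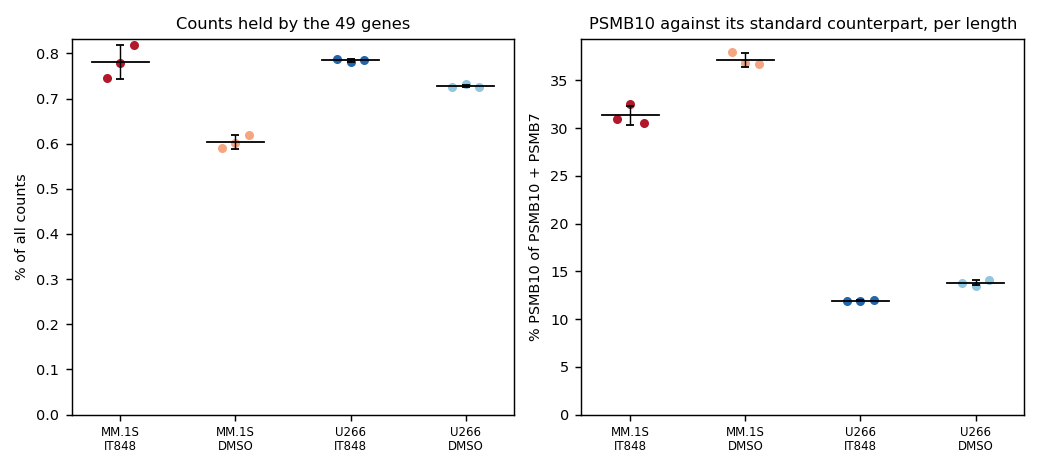
Left, percent of all counts held by the 49 members in each library; right, PSMB10 as percent of PSMB10 plus PSMB7 per transcript length; points are libraries, lines are group means and SD, and both axes start at 0. In both lines the members' share is higher and the PSMB10 share lower with IT848 than with DMSO, without overlap, although PSMB10 itself was called higher in MM.1S.

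Together the members held 0.745, 0.778 and 0.819% of all counts, summed over transcripts, in the MM.1S IT848 libraries, against 0.590, 0.601 and 0.620% in the MM.1S DMSO libraries. In U266 they held 0.788, 0.781 and 0.785% with IT848, against 0.726, 0.732 and 0.727% with DMSO. The share was higher with IT848 in both lines without overlap, at 0.781 ± 0.0371% against 0.603 ± 0.0151% in MM.1S and 0.785 ± 0.0036% against 0.728 ± 0.00311% in U266 (SD, n = 3 each). By class, the cap ATPases held 0.0643 ± 0.00228% in MM.1S IT848 and 0.0456 ± 0.00106% in MM.1S DMSO, and 0.0889 ± 0.000241% in U266 IT848 and 0.0812 ± 0.000142% in U266 DMSO. The activators and PSMF1 held 0.0818 ± 0.00148% in MM.1S IT848 and 0.0860 ± 0.00127% in MM.1S DMSO, and 0.104 ± 0.000661% in U266 IT848 and 0.106 ± 0.000763% in U266 DMSO. Their share was lower with IT848 in both lines, without overlap. With 1 transcript per gene the MM.1S groups overlapped, at 0.0724 ± 0.000802% with IT848 and 0.0728 ± 0.000904% with DMSO.

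Counting libraries in place of model calls, 36 of 48 members had all 3 IT848 libraries above all 3 DMSO libraries in MM.1S, where 22.4% of all tested genes did. In U266 30 members did, where 14.3% of all tested genes did. Of the rest, 3 lay wholly below in MM.1S (PSMD5, PSME3 and PSMF1) and 2 in U266 (PSMB10 and PSME1), while 9 and 16 overlapped. The shares of all tested genes wholly below or overlapping were not counted. These last numbers are therefore not read as a result about the members.

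The difference of the responses, MM.1S minus U266, was tested directly as an interaction. It was called positive for 32 of 48 members and negative for 2, where 8.49% and 8.94% of all tested genes were called in these directions. The median difference was 0.34, beside -0.02 over all genes. Without the 2 libraries that hold reads of the other line it was called positive for 24 and negative for 0, and with the length trend taken out for 28 and 5. All 7 beta ring genes and all 6 ATPases were called, with differences of 0.32 to 0.49 and 0.22 to 0.67. The largest was that of PSMC6 at 0.67 ± 0.13 (SE, edgeR adjusted p = 0.00308). With the length trend taken out, the calls of PSMB1 and PSMC5 were lost (edgeR adjusted p = 0.148 and 0.128). That of PSMB3 was lost without the 2 libraries (0.0609 by edgeR). The other beta ring and ATPase calls were kept in all 19 other settings. PSMA6 had 0.58 ± 0.18 (0.0438 by edgeR), a call lost in 13 of 19 other settings, and PSMB5 had 0.49 ± 0.08 (0.000587), which was kept in all 19. PSMB6, PSMB7 and PSMB2 differed by 0.44 ± 0.10, 0.45 ± 0.10 and 0.42 ± 0.06 (edgeR adjusted p = 0.0062, 0.00575 and 0.00024). PSMC5, PSMD14 and USP14 differed by 0.22 ± 0.05, 0.52 ± 0.09 and 0.23 ± 0.05 (edgeR adjusted p = 0.00724, 0.0014 and 0.00845).

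POMP differed by 0.49 ± 0.15 (SE, edgeR adjusted p = 0.0394) and PSMB10 by 0.31 ± 0.10 (0.0434), calls lost in 11 and 13 of 19 settings. PSME4 differed by 0.22 ± 0.05 (edgeR adjusted p = 0.0131). The negative ones were PSMD5 at -0.26 ± 0.07 and PSME3 at -0.20 ± 0.05 (edgeR adjusted p = 0.0136 and 0.0103), and neither call held without the 2 libraries (0.0639 and 0.0503). No difference was called for PSMA4 (0.34 ± 0.13, edgeR adjusted p = 0.0817), UCHL5 (-0.03 ± 0.07, 0.828), PSME1 (0.21 ± 0.08, 0.0794), PSME2 (0.01 ± 0.09, 0.966), PSMF1 (0.02 ± 0.06, 0.864), PSMG1 (-0.06 ± 0.07, 0.625) or PSMB8 (-0.14 ± 0.26, 0.756). The length trend taken out gave PSME2 a called difference of -0.18 (edgeR adjusted p = 0.0210). Of the members that rose in MM.1S without a called difference, 2 were PSMD7 (0.17 ± 0.06, 0.0519) and ADRM1 (0.15 ± 0.06, 0.121), which were called higher in both lines.

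The lines already differed without the compound. Under DMSO 11 members were higher and 25 lower in MM.1S than in U266, where 40.6% and 42.1% of all tested genes were. All 6 ATPases were lower in MM.1S, by 0.28 (PSMC6) to 1.46 (PSMC1) on the log2 scale. From the DMSO values given for each gene, PSMB5 had a log2 fold change of -1.07 ± 0.05 and PSMB7 of -0.85 ± 0.07 in MM.1S against U266, while PSMB6 had 0.30 ± 0.07 (SE, edgeR adjusted p = 7.62e-11, 1.72e-08 and 0.000922). PSMB10 was higher in MM.1S by 1.03 ± 0.07 and PSMD5 by 1.14 ± 0.05 (edgeR adjusted p = 2.74e-09 and 5.91e-12), the largest of the 11. PSMB8 was not called (0.26 ± 0.18, edgeR adjusted p = 0.203).

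Of the other members given by library, PSMA6 (-0.88), PSMA4 (-0.23), PSMC5 (-0.82), PSME1 (-0.86) and PSME2 (-0.75) were lower in MM.1S DMSO than in U266 DMSO libraries, with SE of 0.03 to 0.13 and edgeR adjusted p of 3.23e-05, 0.0301, 8.44e-12, 1.55e-09 and 3.33e-08. PSMB2 (0.27), PSMD14 (0.19), USP14 (0.14), UCHL5 (0.37) and PSMG1 (0.15) were higher, with SE of 0.04 to 0.06 and edgeR adjusted p of 2.15e-05, 0.0154, 0.00302, 5.64e-06 and 0.0143. POMP (-0.16), PSME3 (-0.02), PSME4 (-0.04) and PSMF1 (0.06) were not called (edgeR adjusted p = 0.185, 0.641, 0.335 and 0.165). This baseline comparison shares its DMSO libraries with the comparisons of IT848 against DMSO, so low values of MM.1S DMSO enter both.

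Levels of different subunits were compared as CPM per kilobase of the most counted transcript. PSMB4, a beta ring subunit, was the highest core gene in every group, at 509.8 CPM per kilobase in MM.1S IT848 and 346 in MM.1S DMSO, and at 452 in U266 IT848 and 423 in U266 DMSO. The median core gene stood at 149 in MM.1S IT848 and 104 in MM.1S DMSO, and at 162 in U266 IT848 and 153 in U266 DMSO. The lowest core gene was PSMA5, an alpha ring subunit, in all groups but U266 IT848, where it was PSMB2 at 36.2, just under PSMA5 at 39.1. PSMA5 and PSMB2 also have the longest transcripts of the 14, 3826 and 4743 bases against a median of 1077. A read count spread over a longer annotated transcript lowers this value. The ratio of highest to lowest core gene was 19.9 in MM.1S IT848 and 20.0 in MM.1S DMSO, and 12.5 in U266 IT848 and 11.9 in U266 DMSO. PSMB5 was the second lowest core gene in MM.1S, at 38.9 with IT848 and 24.2 with DMSO. In the cap, the ubiquitin receptor PSMD4 was highest in all groups, at 275 in MM.1S IT848 and 188 in MM.1S DMSO, and at 222 in U266 IT848 and 206 in U266 DMSO. The scaffold PSMD2 came second in all groups. The chaperones PSMD9 and PSMD5 were lowest, PSMD9 in MM.1S (14.1 with IT848 and 12.02 with DMSO) and PSMD5 in U266 (8.29 with IT848 and 7.94 with DMSO).

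**Figure D4:**
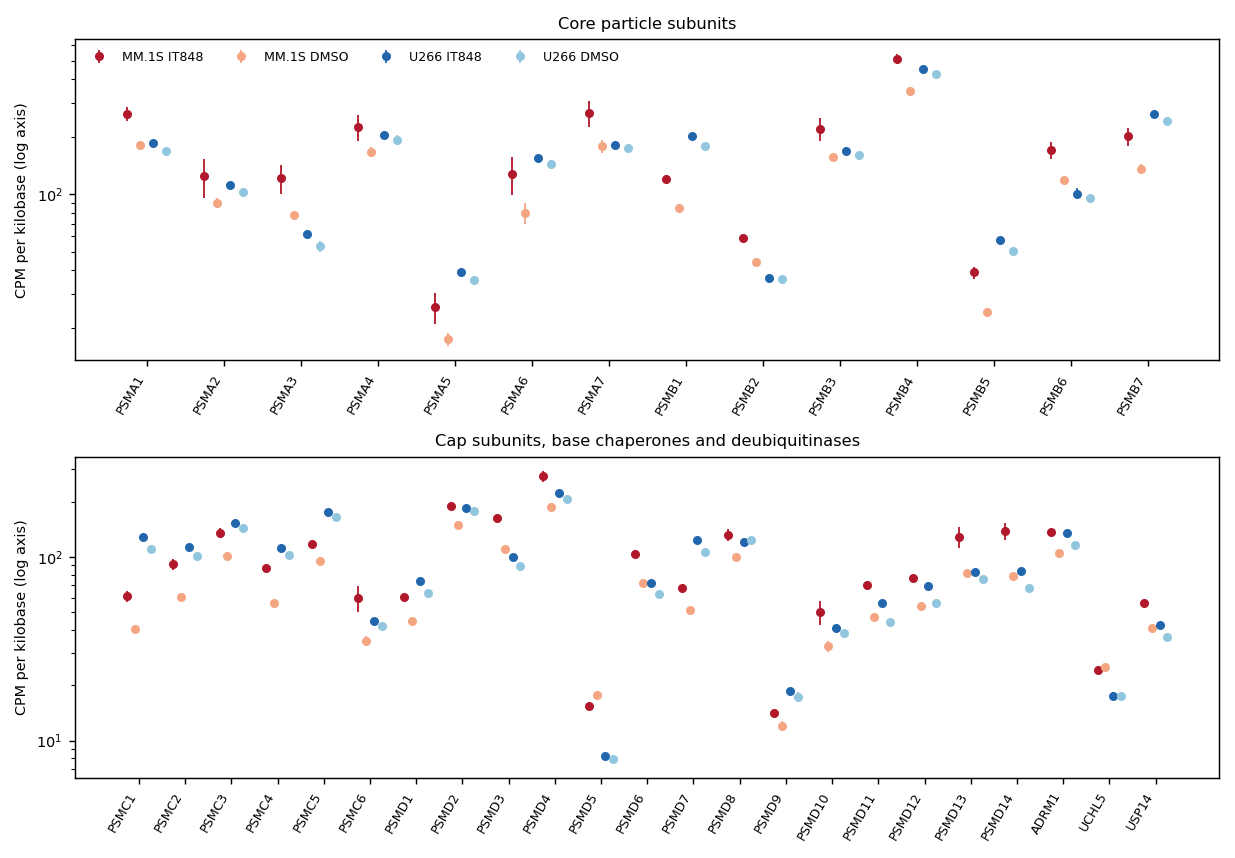
Level per transcript length (CPM per kilobase, log axis) of the 14 core genes (top) and of 23 cap genes (bottom) in MM.1S IT848, MM.1S DMSO, U266 IT848 and U266 DMSO, as group mean with SD of 3 libraries. PSMB4 is the highest core gene and PSMD4 the highest cap gene in all 4 groups.

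Genes that control or serve the proteasome moved in a mixed way. Of a list of 32 such genes, 31 were tested. In MM.1S 18 were called higher and 5 lower (median log2 fold change 0.24), where 18.7% and 19.6% of all tested genes were. In U266 5 were called higher and 0 lower (0.07), where 4.03% and 4.98% of all tested genes were. ZFAND2A, a stress-induced protein that binds the cap, had 10.3, 11.9 and 14.1 CPM in MM.1S IT848 libraries, against 6.45, 6.37 and 6.95 CPM in MM.1S DMSO libraries. It rose by 0.87 ± 0.12 in MM.1S (SE, edgeR adjusted p = 6.88e-05), and its levels were also apart in U266, at 16.99, 12.7 and 14.6 CPM with IT848 against 6.05, 6.37 and 5.55 CPM with DMSO. There it rose by 1.30 ± 0.12 (edgeR adjusted p = 7.2e-06), more than any member. TXNL1, a thioredoxin-like protein bound to the cap, rose by 0.86 ± 0.07 in MM.1S, and ZFAND5, which stimulates the proteasome, by 0.64 ± 0.04 (edgeR adjusted p = 3.74e-07 and 2.42e-08). VCP, the ATPase that extracts ubiquitinated proteins, rose by 0.53 ± 0.03, and its cofactors NPLOC4 and UFD1L by 0.71 ± 0.04 and 0.56 ± 0.07 (edgeR adjusted p = 4.58e-08, 3.36e-09 and 2.49e-05). The ubiquitin gene UBB rose by 0.51 ± 0.07 and NFE2L2, a factor that binds antioxidant response elements, by 0.47 ± 0.06 (edgeR adjusted p = 0.000113 and 2.75e-05).

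In U266 the 5 called genes of this list were ZFAND2A, ZFAND5 (0.36 ± 0.04), SHFM1 (0.31 ± 0.07), NPLOC4 (0.22 ± 0.04) and VCP (0.18 ± 0.03), with SE and edgeR adjusted p of 7.2e-06, 2.62e-05, 0.0122, 0.00113 and 0.0041. SHFM1 encodes a small cap subunit that is not among the 49. NFE2L1, the factor of the proteasome response, had 161, 148 and 134 CPM in MM.1S IT848 libraries, against 129.6, 131 and 127 CPM in MM.1S DMSO libraries, all higher with IT848 (0.19 ± 0.05, edgeR adjusted p = 0.0102). In U266 NFE2L1 had 355, 355 and 360.5 CPM with IT848, against 326, 325 and 336 CPM with DMSO. These groups did not overlap either, but the change was not called (0.12 ± 0.05, edgeR adjusted p = 0.216). The difference of its responses was not called (0.08 ± 0.07, edgeR adjusted p = 0.518). The enzymes that activate the NFE2L1 protein differed in MM.1S, since NGLY1 rose by 0.26 ± 0.04 and the protease DDI2 fell, with -0.43 ± 0.07 (edgeR adjusted p = 9.62e-05 and 0.000386). SHFM1, NFE2L1, NGLY1 and DDI2 were named here after their values were seen. PSMA8, the alpha subunit of germ cell proteasomes, had 1651 to 2192 counts in each U266 library. In MM.1S it had 0, 0 and 3 counts with IT848, and 0, 6 and 0 with DMSO, the 6 in the DMSO library that holds U266 reads.

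Of 9 partners and regulators of the immunoproteasome genes, 8 were tested. By edgeR 2 were called higher and 4 lower in MM.1S, where 18.7% and 19.6% of all tested genes were. In U266 0 were called by edgeR or by DESeq2, where edgeR called 4.03% of all tested genes higher and 4.98% lower. There 1 of the 8, NLRC5, had an unadjusted p below 0.05 in edgeR's test. Of all tested genes, 9.96% had such a p with a positive and 10.8% with a negative fold change. For 8 genes, the U266 counts are near these shares. In MM.1S the interferon signalling factor IRF9 rose by 0.98 ± 0.08 (SE, edgeR adjusted p = 2.92e-07). B2M, the light chain of class I antigen molecules, rose there by 0.39 ± 0.11 (edgeR adjusted p = 0.0127). NLRC5, the transactivator of class I genes, fell, with -0.67 ± 0.09, as did the interferon factor IRF1 (-0.40 ± 0.06), the peptide-trimming protease ERAP1 (-0.44 ± 0.07) and the chaperone TAPBP (-0.37 ± 0.09), with edgeR adjusted p of 7.18e-05, 0.000122, 0.000143 and 0.00478. TAPBP, TAP1 and TAP2 lie in the same chromosome 6 region as PSMB8 and are likewise listed as numbered copies, so the TAPBP value is uncertain, although it had 489 to 608 counts in the MM.1S IT848 libraries and 637 to 931 in the MM.1S DMSO libraries.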

How the data were processed

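Each deposited table lists 51780 RefSeq transcripts of 25680 symbols with a count, an FPKM and a TPM. Per the submitters' processing notes, the authors used STAR 2.5.2b on hg19 after trimming with Trimmomatic 0.36, and counted with featureCounts (Subread 1.5.2). The sources used here do not give the annotation release, the strand setting or the handling of multiply aligned reads. The deposited count is the raw number of reads assigned to a transcript, per the file headers. The deposited FPKM is scaled to length and library total, and served here to recover transcript lengths. The deposited TPM, scaled to a fixed total by the authors, served as a check of per-length levels.

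Counts of all transcripts were summed per symbol. Such sums repeat reads that overlap several isoforms. edgeR 4.0.16 in R 4.3.3 fitted all 12 libraries, a mean per group, with TMM scaling, a minimum count of 10 in the expression filter and robust quasi-likelihood F tests, with Benjamini-Hochberg adjustment over 16782 genes. The fit was also run on counts simulated from its own means and spreads. These had no length trend and no single library with reads of the other line. The simulation could therefore not show what either does to the calls. The contrasts were the IT848 response of each line, the difference of both responses and MM.1S against U266 under DMSO.

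Alternatives were DESeq2 1.42.0, RLE size factors, no filter, the most counted transcript alone, a replicate block, the length trend taken out, fits of the compared groups, and leaving out libraries. Same-numbered replicates are not paired by the labels, and the numbers were not treated as pairs.

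The members and gene lists were chosen with earlier results of these data known. By the rule, the members with the largest and smallest MM.1S change in each class, the immunoproteasome genes and their standard counterparts, the activators, PSMF1 and POMP are given by library, other members where called in U266 or in the difference, and up to 8 called genes of each list. 1 gene of the second list is not reported here, and counts over that list leave it out. No hg19 annotation was used here, so hg19 coordinates are not given.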

Additional observations from a re-analysis of the deposited data

Results flagged for a closer look

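Results are listed here where the response to IT848 differed between the lines by the interaction test of edgeR (adjusted p below 0.05), as MM.1S minus U266 on the log2 scale. Among the core genes and PSMB10 the differences were 0.40 for PSMA1, 0.42 for PSMA3, 0.58 for PSMA6 and 0.52 for PSMA7, and 0.32 for PSMB1, 0.42 for PSMB2, 0.43 for PSMB3, 0.46 for PSMB4, 0.49 for PSMB5, 0.44 for PSMB6, 0.45 for PSMB7 and 0.31 for PSMB10. Among the cap ATPases they were 0.38 for PSMC1, 0.42 for PSMC2, 0.32 for PSMC3, 0.52 for PSMC4, 0.22 for PSMC5 and 0.67 for PSMC6. The other cap genes had 0.20 for PSMD1, 0.28 for PSMD2, 0.39 for PSMD3, 0.44 for PSMD4, -0.26 for PSMD5, 0.34 for PSMD6, 0.44 for PSMD8, 0.53 for PSMD10, 0.22 for PSMD11, 0.20 for PSMD12, 0.53 for PSMD13 and 0.52 for PSMD14. The cap deubiquitinase USP14 had 0.23. Outside the core and cap the values were -0.20 for PSME3, 0.22 for PSME4 and 0.49 for POMP.

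Among the genes that control or serve the proteasome the differences were 0.47 for NFE2L2, 0.32 for NGLY1, -0.38 for DDI2, 0.35 for VCP, 0.49 for NPLOC4, 0.50 for UFD1L, 0.43 for UBB, 0.34 for UBQLN1, -0.32 for UBQLN4, 0.68 for TXNL1, 0.24 for KIAA0368, -0.23 for UBE3C, -0.26 for IPO9 and 0.27 for ZFAND5. Among the partners of the immunoproteasome genes they were -0.31 for ERAP1, -0.32 for IRF1, 0.90 for IRF9 and -0.84 for NLRC5. No group here holds 4 or more libraries, so single libraries were not screened as outliers.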

How the results depend on the processing

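Of the 38 members called higher in MM.1S, 37 kept the call in all 20 other settings, as did both called lower, and the exception was PSMB10. In U266 6 of 12 kept it, in the difference 22 of 32 positive and 0 of 2 negative calls in 19 settings, and under DMSO 9 of 11 and 23 of 25. Over all genes, the U266 calls were 924 in place of 1512, and the difference calls 1712 in place of 2924, without the 2 libraries with reads of the other line. Members called higher in U266 were 22 in place of 12 in a fit of the compared groups, and members called lower in MM.1S 4 in place of 2 with the length trend taken out. Members with a negative difference were 5 in place of 2 with that trend taken out and 0 without the 2 libraries. Leaving out each library in turn gave 986 to 1827 calls in U266, 7 to 14 members called higher there (7 without U266 DMSO replicate 1 and 7 without U266 IT848 replicate 3), and 1 to 3 members with a negative difference. PSME2 reversed with the length trend taken out, to -0.22 in MM.1S and -0.18 in the difference. The cause of these shifts was not tested. The members' share of counts in MM.1S IT848 was 0.836% with 1 transcript per gene, and the stricter motif gave 0% of windows.

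Whether the replicate numbers pair the libraries was left undecided. Same-numbered IT848 and DMSO libraries correlated at 0.0971, 0.0688 and -0.0089 in U266 and 0.259, -0.0261 and 0.203 in MM.1S over 10595 genes. For MM.1S libraries of different numbers, the lowest correlation was -0.283 and the highest 0.0580. Replicates 1 and 3 of MM.1S thus lay above that range, and replicate 2 lay within it. For U266 libraries of different numbers, the lowest was -0.100 and the highest 0.0777, with only replicate 1 above. A replicate block gave 2155 calls in U266 and 4388 in the difference, with 16 members called higher in U266. Depth did not limit the members except PSMB8 and PSMB9.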

Other observations

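Other short motifs were searched on both strands of the 43 promoter windows. The CCAAT box CCAAT occurred in 44.2% of them, against 35.7% of the same 27305 unmatched promoters. The interferon response element GAAANNGAA occurred in 16.3% against 8.29%, in the windows of POMP, PSMA4, PSMB10, PSMB4, PSMC2, PSME1 and PSME2. The NF-kB motif GGNNNTTCC occurred in 27.9% against 20.1%.

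The antisense gene PSMD5-AS1 had 990, 1094 and 923 counts in the MM.1S IT848 libraries, against 1459, 1009 and 1044 counts in the MM.1S DMSO libraries. PSMD5 itself had 2678, 2815 and 2619 counts in these IT848 libraries, against 3972, 2772 and 3224 with DMSO. PSMD6-AS2 had 106, 77 and 45 counts there with IT848, against 181, 103 and 94 with DMSO. PSMG3-AS1 had 271, 231 and 210 counts in the MM.1S IT848 libraries, against 198, 120 and 115 counts in the MM.1S DMSO libraries. PSMB8-AS1 had 0 counts in all 12 libraries. These are raw counts of libraries of unequal depth, with no test.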
